A study of Mus with 3 samples.

Results

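The α chain of the αβ T cell receptor (TCR) was read in single T cells of MC38 mouse colon tumors, and the V and J segments of these chains are described here. The members were all V and J genes of TCR α (TRA) contigs that carried a clonotype number in the deposited contig table, with the contig of most UMIs (unique molecular identifiers, 1 per captured RNA molecule) counted in each cell. They came to 84 V genes, 43 J genes and 3186 of 5600 cells. The V genes fall into 19 subgroups, the families that share the number after TRAV.

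Tumors were taken on day 16 after injection of the MC38 line, which was grown from a chemically induced colon tumor of C57BL/6 mice. The genotypes were WT (the study names C57BL/6 and dLck-Cre controls, and the sources do not say which of them gave this tumor), RARα-KO (dLck-Cre with both Rara alleles floxed, so that Cre under the distal Lck promoter acts in T cells) and RARα-TG (Rara under the CD2 promoter). RARα, the product of Rara, is a nuclear receptor for retinoic acid. For each genotype, 30000 sorted CD45.2+ CD3+ cells and 10000 total tumor cells were mixed, marked with 1 antibody hashtag and pooled into 1 library, so each genotype was 1 sample. The sources used here do not give the number of mice. No comparison below has a replicate, no test was run, and the exact Clopper-Pearson 95% intervals cover counting error only.

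A developing T cell joins 1 V segment to 1 J segment of the Tra locus, and the joint forms the third complementarity-determining region (CDR3), the loop that lies over the bound peptide. In C57BL/6 mice a block of V genes is present in repeated copies, whose genes carry the letter D or N in their names. Because joining begins with the V genes and J segments that are nearest to each other and can be repeated outwards on the same chromosome, V and J segments are not combined at random. Some lineages use 1 fixed joint, such as TRAV11 with TRAJ18 in invariant NKT cells and TRAV1 with TRAJ33 in MAIT cells.

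The sequences on which the main difference between the genotypes turned are shown first. They are CDR3 nucleotide sequences of α chains from RARα-KO cells, all of 42 bases and all joined to TRAJ22 (chromosome 14, 54197248 to 54197307, GRCm38). Capitals mark the bases that differ from the first sequence, which was the one found in most clonotypes.
TRAV14 in 15 clonotypes: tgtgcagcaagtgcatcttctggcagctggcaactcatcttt
TRAV12D-1 in 6 clonotypes: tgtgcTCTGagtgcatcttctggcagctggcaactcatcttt
TRAV14N-3 in the largest clonotype: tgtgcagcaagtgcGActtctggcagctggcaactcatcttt
TRAV14N-3 in 1 clonotype of 32 cells: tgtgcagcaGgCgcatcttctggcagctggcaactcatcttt
TRAV14N-3 in 2 clonotypes: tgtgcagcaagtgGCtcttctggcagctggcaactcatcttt
The last 26 bases were the same in all 18 distinct sequences of this kind, so the differences lay among the first 16 bases. All 18 were chosen for TRAJ22, so a shared end was given by that choice.

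Of the 3186 cells, 2956 had 1 hashtag, with 1168 cells in 478 clonotypes in WT, 1217 cells in 319 clonotypes in RARα-KO and 571 cells in 432 clonotypes in RARα-TG. The counted contig had between 1 and 68 UMIs, with a median of 5. Counted cells had the markers of T cells: Cd3e, a chain of the CD3 complex, had a UMI in 96.2% of them and in 6.78% of the 634 cells with a genotype and no TCR contig. Their median gene UMIs were 4785 against 6676 in the cells without a contig. Rara, counted in these T cells, was at 82.7 CPM (595 UMIs, Poisson 95% interval 76.2 to 89.6) in WT, 76.3 CPM (603 UMIs, 70.4 to 82.7) in RARα-KO and 247.6 CPM (646 UMIs, 228.8 to 267.4) in RARα-TG. Rara was thus higher in RARα-TG, and these counts do not check the deletion, which leaves a shortened transcript. Only 4 of 1225 clonotypes were found in 2 genotypes, each with 1 cell in the smaller one, 4 cells in all.

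TRAJ22 was the J segment whose share differed by the most percentage points between RARα-KO and WT, over cells and over clonotypes. It was carried by 491 of 1217 RARα-KO cells (40.3%, 95% interval 37.6% to 43.2%), 19 of 1168 WT cells (1.63%, 0.982% to 2.53%) and 31 of 571 RARα-TG cells (5.43%, 3.72% to 7.62%). The RARα-KO share was 24.8-fold that of WT. Over clonotypes, where a large clone counts only once, the shares were 17.9% (57 of 319, 13.8% to 22.5%), 2.93% (14 of 478, 1.61% to 4.87%) and 5.56% (24 of 432, 3.59% to 8.15%). The RARα-KO interval did not overlap the others on either scale.

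**Figure D1:**
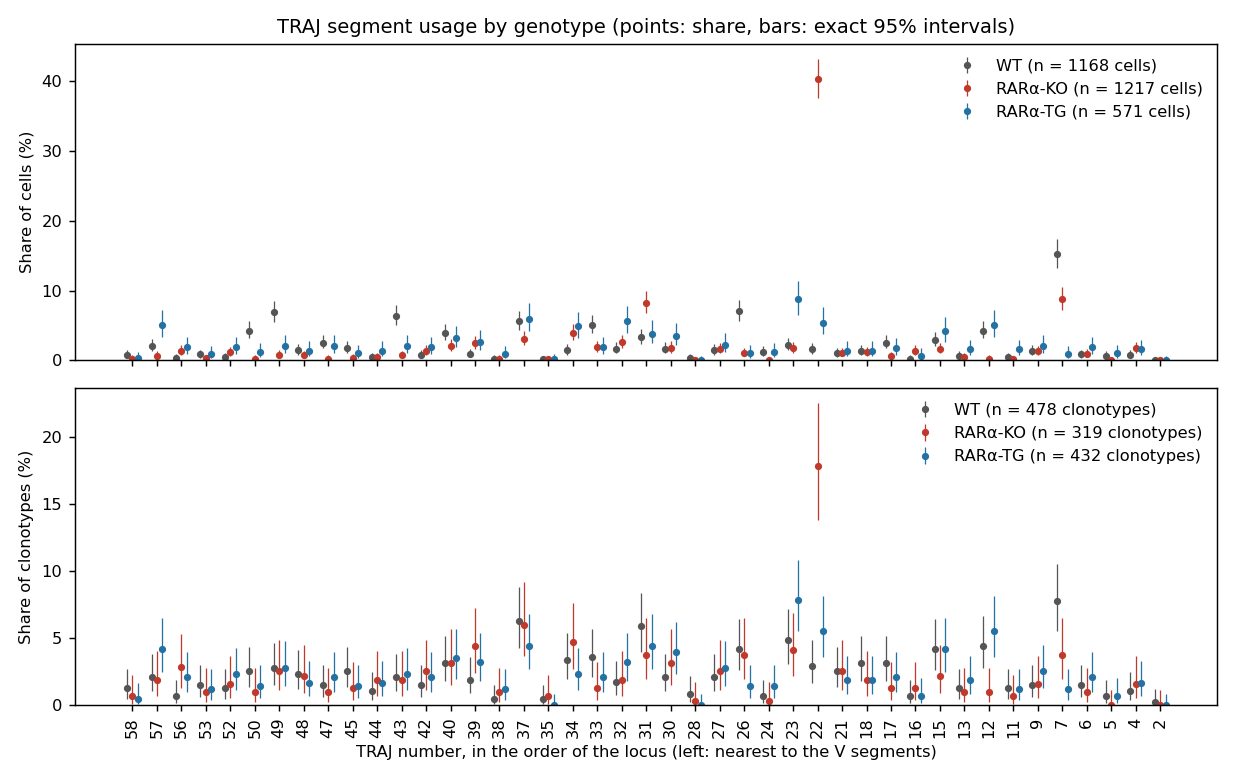
Share of cells (top) and of clonotypes (bottom), in percent, for each of the 43 TRAJ segments in the order of the locus, with points for the 3 genotypes and lines for exact 95% intervals. TRAJ22 in RARα-KO stands at 40.3% of cells and 17.9% of clonotypes, while TRAJ7 is at 15.2% of WT cells and 0.876% of RARα-TG cells.

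The TRAJ22 cells of RARα-KO mice were mostly CD8 cells, the lineage of cytotoxic T cells. Gates were set by UMIs: CD8 cells had Cd8a and no Cd4, and CD4 cells had Cd4 and no Cd8a and were split by Foxp3, the transcription factor of regulatory T cells. Only 1 of 215 clonotypes with 2 or more gated cells had cells in both the CD8 and the CD4 gates. In the CD8 gate TRAJ22 made up 418 of 832 RARα-KO cells (50.2%, 46.8% to 53.7%), 7 of 728 WT cells (0.962%, 0.387% to 1.97%) and 9 of 71 RARα-TG cells (12.7%, 5.96% to 22.7%). Over CD8 clonotypes it made up 30.6% (41 of 134, 22.9% to 39.1%) in RARα-KO, 3.05% (5 of 164, 0.997% to 6.97%) in WT and 12.1% (8 of 66, 5.38% to 22.5%) in RARα-TG. The WT and RARα-TG intervals overlapped each other over clonotypes.
In the CD4 Foxp3 negative gate TRAJ22 was carried by 24 of 140 RARα-KO cells (17.1%, 11.3% to 24.4%), 2 of 79 WT cells and 2 of 93 RARα-TG cells. Over clonotypes this was 11 of 79 against 2 of 55 and 2 of 72, and the RARα-KO interval (7.16% to 23.5%) overlapped both. In the CD4 Foxp3 positive gate there were 2 of 79 RARα-KO, 1 of 112 WT and 7 of 146 RARα-TG cells with TRAJ22. The RARα-KO excess was thus measured in CD8 cells and, over cells, in CD4 Foxp3 negative cells.

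**Figure D2:**
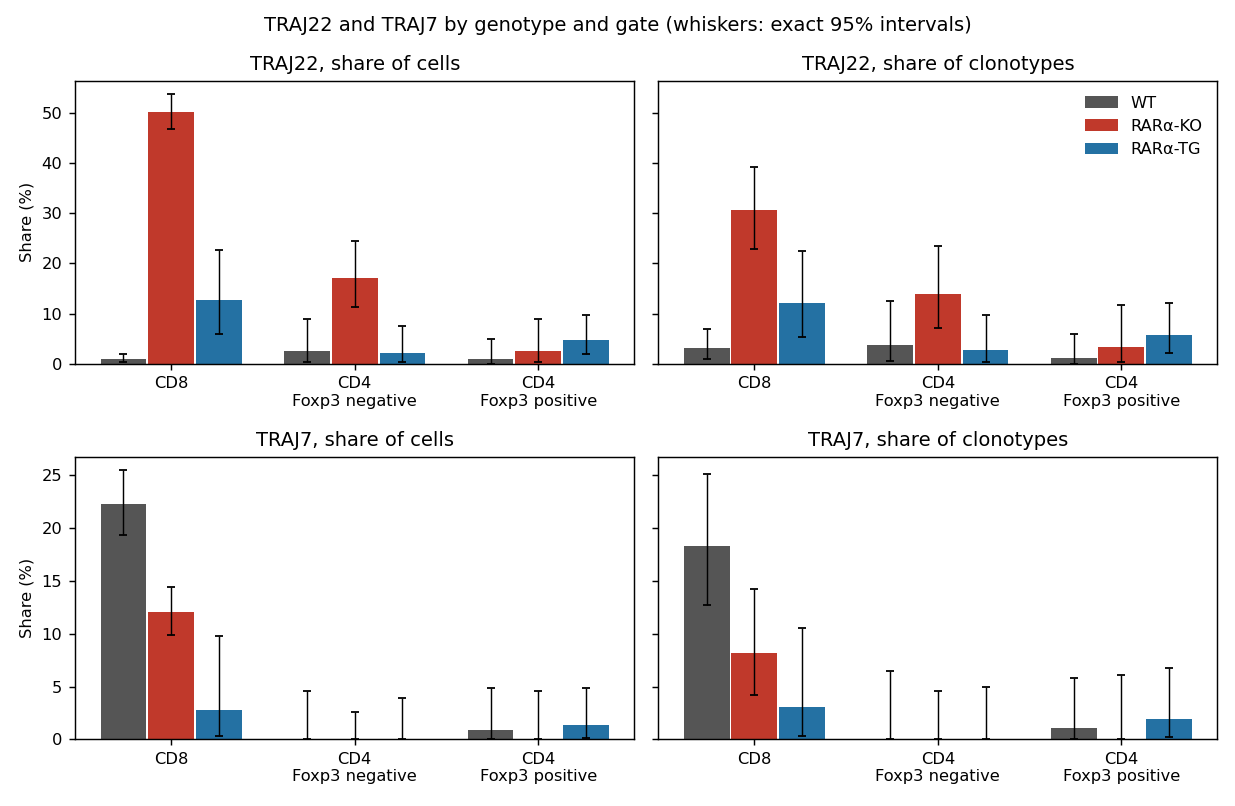
Share of cells (left) and clonotypes (right), in percent, with TRAJ22 (top) and TRAJ7 (bottom) in each gate, with 1 bar per genotype and whiskers for exact 95% intervals. TRAJ22 is highest in RARα-KO CD8 cells (50.2% of cells), and TRAJ7 is near the floor in both CD4 gates of every genotype.

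Within RARα-KO, TRAJ22 was joined mainly to TRAV14 (31 of its 57 clonotypes, 303 of 491 cells) and to TRAV12 (12 clonotypes, 163 cells). The remaining TRAJ22 clonotypes were spread over 9 other subgroups with 1 or 2 clonotypes each. In WT, TRAV14 had 4 of 14 TRAJ22 clonotypes and TRAV12 had 0, and in RARα-TG TRAV14 had 3 of 24 and TRAV12 had 6. The V genes of these joints included TRAV14N-3 (chromosome 14, 53370077 to 53370575) and TRAV12D-1 (chromosome 14, 52844560 to 52845041). TRAV14N-3 was in 286 of 1217 RARα-KO cells (23.5%), 8 of 1168 WT cells (0.685%) and 6 of 571 RARα-TG cells (1.05%). TRAV12D-1 was in 160 (13.1%), 5 (0.428%) and 4 (0.701%) cells.
Length was shared as well. A CDR3 of 42 bases was found in 47 of 57 RARα-KO clonotypes with TRAJ22 (82.5%, 70.1% to 91.3%) and in 71 of 262 without it (27.1%, 21.8% to 32.9%). In WT and RARα-TG it was found in 6 of 14 and 14 of 24 TRAJ22 clonotypes.

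The TRAV14 or TRAV12 chains with TRAJ22 and a 42-base CDR3, a set chosen after its values were seen, are those whose sequences are printed above. They were counted in 462 RARα-KO cells (38.0% of all, 35.2% to 40.8%), 2 WT cells (0.171%) and 7 RARα-TG cells (1.23%). The RARα-KO cells were spread over 40 clonotypes, of which 12 had 10 or more cells and 10 had 1 cell. The largest had 122 cells. Without it the set still made up 31.1% of the remaining RARα-KO cells (340 of 1095), and without its 3 largest clonotypes 23.4% (231 of 986). By gate, 404 of the 462 cells were CD8, 15 CD4 Foxp3 negative, 1 CD4 Foxp3 positive and 42 in neither gate. The median gene UMIs were 5739 in these cells and 5653 in the other RARα-KO CD8 cells, and the median contig UMIs were 5 in both.
The 40 clonotypes held 18 different α CDR3 sequences, against 39 different β CDR3 sequences in the 460 cells with a β chain. The TRAV14 sequence printed first occurred in 65 RARα-KO cells, with 5 different TRAV14 genes and 15 β CDR3 sequences, and also in 2 WT and 2 RARα-TG cells. The TRAV12D-1 sequence occurred in 147 RARα-KO cells with 7 β CDR3 sequences and in no WT or RARα-TG cell. On the β side, 422 of the 460 cells used TRBV16 (91.7%, 88.8% to 94.1%), against 88 of 417 other RARα-KO CD8 cells (21.1%, 17.3% to 25.3%) and 69 of 706 WT CD8 cells (9.77%, 7.68% to 12.2%). Over clonotypes TRBV16 was paired with 29 of the 40 (72.5%, 56.1% to 85.4%) and with 16 of 99 other RARα-KO CD8 clonotypes (16.2%, 9.53% to 24.9%). The values of the set are over all gates. In the CD8 gate alone, 384 of its 404 cells and 29 of its 37 clonotypes used TRBV16. In the CD4 Foxp3 negative gate 0 of 3 such clonotypes used TRBV16, and neither of the 2 WT cells nor any of the 7 RARα-TG cells did. The J segments of the β chains were mixed, with TRBJ1-1 and TRBJ2-4 leading at 7 clonotypes each, and 18 of 40 β CDR3 sequences had 42 bases.

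Chains that recur with several β chains were also counted over all genotypes. Of 1165 distinct α chains (same V gene, J gene and CDR3 nucleotides), 33 were found with 2 or more β CDR3 sequences (2.83%), and 9 of these 33 used TRAJ22. Only 55 of the 1165 chains were in 2 or more clonotypes, and 948 of 1229 clonotypes had 1 cell. Most chains could therefore hardly show a second β CDR3, and the share does not tell how common such recurrence was. Across genotypes, 19 α chains were found in 2 genotypes and 0 in all 3.

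TRAJ7 (chromosome 14, 54211470 to 54211528) was found mostly in the CD8 gate when the genotypes were pooled. It was in 43 of 364 CD8 clonotypes (11.8%, 8.68% to 15.6%), 0 of 206 CD4 Foxp3 negative clonotypes (which allows a share of up to 1.46%) and 3 of 257 CD4 Foxp3 positive clonotypes (1.17%, 0.241% to 3.37%). The CD8 share was at least 8.11-fold that of CD4 Foxp3 negative clonotypes, with the 0 set to 3 clonotypes. By genotype, TRAJ7 was in 30 of 164 WT (18.3%, 12.7% to 25.1%), 11 of 134 RARα-KO (8.21%, 4.17% to 14.2%) and 2 of 66 RARα-TG CD8 clonotypes (3.03%, 0.369% to 10.5%), so that WT and RARα-TG did not overlap. Within genotypes the CD8 interval over clonotypes was apart from both CD4 gates only in WT, and RARα-TG had 2 of 66 CD8 and 2 of 105 CD4 Foxp3 positive clonotypes with TRAJ7. Over all T cells TRAJ7 was in 178 WT (15.2%), 107 RARα-KO (8.79%) and 5 RARα-TG cells (0.876%, 0.285% to 2.03%), and the RARα-TG sample held 71 CD8 cells against 728 in WT.
The TRAJ7 chains came from 23 V genes of 11 subgroups, with 50 distinct chains. Of the 54 clonotypes, 47 used a V gene of the D or N copies. Over all 1229 clonotypes the D copy held 414 (33.7%) and the N copy 181 (14.7%). The median TRAJ number was 22 in each of these copies and 30 over all clonotypes. V genes of both copies were thus joined to low J numbers in general, and the 47 clonotypes are not separate from that order. Whether TRAJ7 exceeded other J segments of low number in this was not tested. The chains of most cells are shown with their V genes. All were chosen for TRAJ7, so a shared J end was given by that choice. Capitals mark the 22 bases shared by all 50 chains.
TRAV7D-2 in 40 WT and 16 RARα-KO cells: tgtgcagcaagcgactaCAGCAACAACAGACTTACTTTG
TRAV3-3 in 37 RARα-KO cells: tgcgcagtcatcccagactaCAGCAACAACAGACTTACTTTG
TRAV3-1 in 30 WT cells: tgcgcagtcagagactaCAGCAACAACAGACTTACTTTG
TRAV7D-2 in 30 RARα-KO cells: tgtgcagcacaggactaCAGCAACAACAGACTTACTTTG
The first of these chains was found in 2 genotypes, in a different clonotype in each.

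The V subgroups differed between genotypes over cells and much less over clonotypes. A subgroup was called when its share differed 2-fold or more between 2 groups and the intervals did not overlap, among those with 20 or more cells (or 10 or more clonotypes) in the pair. Over cells 6 of 14 subgroups (42.9%) were called between RARα-KO and WT. TRAV14 was higher in RARα-KO, at 26.9% (24.4% to 29.5%) against 4.79% (3.64% to 6.18%), and TRAV5, TRAV8, TRAV10, TRAV13 and TRAV17 were lower. Between RARα-TG and WT 5 of 14 (35.7%) were called. TRAV6 was at 19.1% (15.9% to 22.6%) in RARα-TG and 8.22% (6.71% to 9.94%) in WT, TRAV4 was also higher, and TRAV10, TRAV16 and TRAV17 were lower. Without the largest clonotype of each genotype TRAV6 was at 16.3% in RARα-TG and 8.70% in WT, under 2-fold, and was no longer called. Between RARα-KO and RARα-TG 7 of 12 (58.3%) were called, with TRAV3, TRAV14 and TRAV16 higher in RARα-KO and TRAV5, TRAV6, TRAV8 and TRAV19 lower. These calls are over all T cells. The CD8 gate held 71 of 571 RARα-TG cells, 728 of 1168 WT cells and 832 of 1217 RARα-KO cells, so gate and genotype are partly mixed. Within CD8 cells TRAV16 was at 7.04% in RARα-TG (2.33% to 15.7%) and 8.93% in WT (6.96% to 11.2%). It was at 9.01% in RARα-KO CD8 cells (7.16% to 11.2%), and the intervals overlapped.
Over clonotypes 0 of 13 subgroups were called in any of the 3 comparisons (0%). TRAV7 was the most frequent subgroup with 183 of 1229 clonotypes (14.9%), followed by TRAV6 (166), TRAV12 and TRAV14 (122 each), TRAV9 (116), TRAV3 (91), TRAV4 (82), TRAV13 (81), TRAV16 (66) and TRAV5 (65). TRAV7 was at 15.5% of RARα-TG clonotypes, 14.9% of WT and 14.1% of RARα-KO clonotypes. TRAV14 was at 14.7% of RARα-KO clonotypes (11.0% to 19.1%), against 8.16% in WT (5.87% to 11.0%) and 8.33% in RARα-TG (5.90% to 11.4%). Within CD8 clonotypes TRAV14 was in 29 of 134 in RARα-KO (21.6%, 15.0% to 29.6%), 11 of 164 in WT (6.71%, 3.40% to 11.7%) and 1 of 66 in RARα-TG (1.52%, 0.0384% to 8.16%), so that the RARα-KO interval lay above both others. In the CD4 gates TRAV14 was in 7 of 79 Foxp3 negative and 7 of 59 Foxp3 positive RARα-KO clonotypes.

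**Figure D3:**
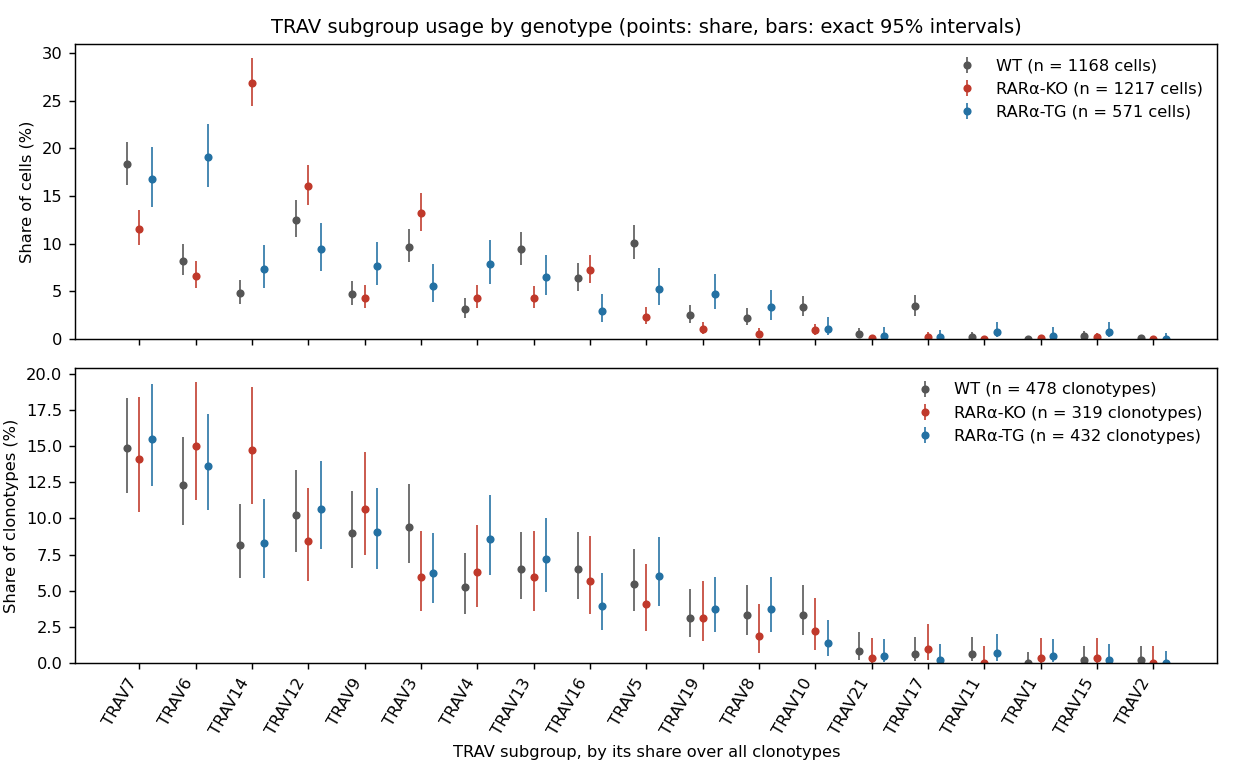
Share of cells (top) and of clonotypes (bottom), in percent, for the 19 TRAV subgroups, with points for the 3 genotypes and lines for exact 95% intervals. Over cells of all gates together TRAV14 stands apart in RARα-KO (26.9%) and TRAV6 in RARα-TG (19.1%). Over clonotypes the intervals of most subgroups overlap. Within CD8 cells, which are not drawn apart here, the TRAV6 intervals of RARα-TG and WT overlapped.

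J segments showed the same contrast of scales. Over cells 14 of 32 segments (43.8%) were called between RARα-KO and WT. TRAJ16, TRAJ22, TRAJ31 and TRAJ34 were higher in RARα-KO, and TRAJ12, TRAJ17, TRAJ26, TRAJ33, TRAJ43, TRAJ45, TRAJ47, TRAJ49, TRAJ50 and TRAJ57 lower. Between RARα-TG and WT 11 of 29 (37.9%) were called. TRAJ22, TRAJ23, TRAJ32, TRAJ34 and TRAJ57 were higher in RARα-TG, and TRAJ7, TRAJ26, TRAJ33, TRAJ43, TRAJ49 and TRAJ50 lower. These calls are over all T cells, and the CD8 gate held 71 of 571 RARα-TG and 728 of 1168 WT cells. Gate and genotype are thus partly mixed. Within CD8 cells the intervals of RARα-TG and WT stayed apart for TRAJ7, TRAJ22, TRAJ23, TRAJ26 and TRAJ57. They overlapped for TRAJ32, TRAJ33, TRAJ34, TRAJ43, TRAJ49 and TRAJ50. TRAJ34 was in 0 of 71 RARα-TG and 3 of 728 WT CD8 cells. Between RARα-KO and RARα-TG 8 of 26 (30.8%) were called, with TRAJ7, TRAJ22 and TRAJ31 higher in RARα-KO and TRAJ12, TRAJ15, TRAJ23, TRAJ32 and TRAJ57 lower.
Over clonotypes the calls were 2 of 33 (6.06%) between RARα-KO and WT, 1 of 35 (2.86%) between RARα-TG and WT and 2 of 32 (6.25%) between RARα-KO and RARα-TG. They were TRAJ22 (higher in RARα-KO in both of its comparisons), TRAJ12 (3 of 319 RARα-KO clonotypes, 0.940%, against 21 of 478, 4.39%, in WT and 24 of 432, 5.56%, in RARα-TG) and TRAJ7 (5 of 432 RARα-TG clonotypes, 1.16%, against 37 of 478, 7.74%, in WT). Over all clonotypes the most frequent J segments were TRAJ22 (95 of 1229), TRAJ23 (70), TRAJ37 (68), TRAJ31 (59) and TRAJ7 (54).

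Single large clonotypes made up much of the calls over cells. For the 37 pairs of a called segment and the genotype where it was higher, the largest clonotype held between 8.89% and 92.5% of the cells (median 34.1%) and more than 50% in 11 of them. TRAV17 in WT was the extreme, with 37 of its 40 cells in 1 clonotype. TRAJ43 in WT had 64 of 74 cells in 1 clonotype, TRAJ49 in WT 55 of 81 and TRAJ31 in RARα-KO 79 of 101. TRAJ22 in RARα-KO had 122 of 491, and TRAV6 in RARα-TG 19 of 109.
Clonotypes from among the 3 of most cells in each genotype are shown with their CDR3, in which capitals mark the bases that the deposited annotation assigns to the J segment.
RARα-KO, 122 cells, TRAV14N-3 with TRAJ22: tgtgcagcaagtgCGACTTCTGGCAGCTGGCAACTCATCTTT
RARα-KO, 79 cells, TRAV3D-3 with TRAJ31: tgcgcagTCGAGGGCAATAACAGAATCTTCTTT
RARα-KO, 77 cells, TRAV12D-1 with TRAJ22: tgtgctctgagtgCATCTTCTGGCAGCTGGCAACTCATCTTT
WT, 64 cells, TRAV5-4 with TRAJ43: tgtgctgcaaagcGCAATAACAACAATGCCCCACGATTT
WT, 42 cells, TRAV3-1 with TRAJ7: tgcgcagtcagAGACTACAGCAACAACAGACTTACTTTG
RARα-TG, 19 cells, TRAV6N-7 with TRAJ34: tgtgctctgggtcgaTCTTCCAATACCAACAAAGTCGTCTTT
RARα-TG, 18 cells, TRAV6N-7 with TRAJ32: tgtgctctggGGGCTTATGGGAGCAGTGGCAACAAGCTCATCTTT
RARα-TG, 18 cells, TRAV7D-2 with TRAJ23: tgtgcagccctCCAGGGGAAGCTTATCTTT
In RARα-KO and WT these clonotypes had no cell in a CD4 gate, and between 68 and 116 cells of each RARα-KO clonotype and between 41 and 58 of each WT clonotype were in the CD8 gate. The RARα-TG clonotypes had 0 CD8 cells and 14, 5 and 7 CD4 Foxp3 positive cells, in the order printed. The chain shown was the counted one in 30 of the 42 cells of the WT clonotype with TRAJ7 and in 15 of the 18 cells of the RARα-TG clonotype with TRAJ23.

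TRAV6N-7 (chromosome 14, 53318818 to 53319284), the V gene of both TRAV6 clonotypes above, was in 61 of 571 RARα-TG cells (10.7%, 8.27% to 13.5%), 22 of 1168 WT cells (1.88%) and 22 of 1217 RARα-KO cells (1.81%). Over clonotypes it was in 14 of 432 (3.24%), 12 of 478 (2.51%) and 13 of 319 (4.08%), with overlapping intervals. Of the 61 RARα-TG cells, 44 had a TRBV20 β chain, and by gate 26 were CD4 Foxp3 positive, 12 CD4 Foxp3 negative, 0 CD8 and 23 in neither. The clonotypes of 19 and 18 cells above both used TRBV20. TRBV20 was also paired with TRAV6N-7 in 12 of 22 RARα-KO cells and 2 of 22 WT cells.

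Between gates, pooled over genotypes, the calls over clonotypes were few. For V subgroups they were 2 of 13 (15.4%) between CD8 and CD4 Foxp3 negative clonotypes, 1 of 13 (7.69%) between CD8 and CD4 Foxp3 positive and 0 of 12 (0%) between the CD4 gates. TRAV16 was higher in CD8 clonotypes (41 of 364, 11.3%, 8.21% to 15.0%) than in CD4 Foxp3 negative (4 of 206, 1.94%, 0.532% to 4.90%) and CD4 Foxp3 positive clonotypes (7 of 257, 2.72%, 1.10% to 5.53%). Within genotypes the CD8 share of TRAV16 was the highest of the gates in each, at 24 of 164 clonotypes in WT, 5 of 66 in RARα-TG and 12 of 134 in RARα-KO, and only in WT were its intervals apart from both CD4 gates. TRAV7 was lower in CD8 (32 of 364, 8.79%) than in CD4 Foxp3 negative clonotypes (37 of 206, 18.0%). It was lower in CD8 within each genotype as well, but there the intervals of these 2 gates overlapped in each.
For J segments the calls over clonotypes were 1 of 25 (4%), 4 of 28 (14.3%) and 0 of 20 (0%) in the same order. TRAJ7 was called in both comparisons with CD8. The others were against CD4 Foxp3 positive clonotypes: TRAJ22 was higher in CD8 (54 of 364 against 9 of 257), and TRAJ37 (7 against 25) and TRAJ15 (5 against 15) were lower. Within genotypes the intervals of TRAJ22 and of TRAJ37 were apart only in RARα-KO, and those of TRAJ15 overlapped in each. TRAJ22 was in 41 of 134 CD8 and 2 of 59 CD4 Foxp3 positive clonotypes of RARα-KO. It was in 5 of 164 and 1 of 93 in WT and in 8 of 66 and 6 of 105 in RARα-TG. The TRAJ15 call was lost under 4 of the alternatives.
Over cells the calls were 9 of 14 V subgroups (64.3%) and 10 of 23 J segments (43.5%) for CD8 against CD4 Foxp3 negative, 6 of 13 (46.2%) and 7 of 23 (30.4%) for CD8 against CD4 Foxp3 positive, and 1 of 11 (9.09%) and 2 of 9 (22.2%) between the CD4 gates. In both comparisons with CD8 cells, TRAV16 and TRAV17 were higher in CD8, TRAV6 and TRAV9 lower, TRAJ7, TRAJ22 and TRAJ26 higher, and TRAJ34 and TRAJ37 lower. Some of these rest on 1 genotype. WT had 38 of the 39 CD8 cells with TRAV17, nearly all WT cells with it being of 1 clonotype, and 69 of the 73 with TRAJ26. RARα-KO had 418 of the 434 CD8 cells with TRAJ22. Against CD4 Foxp3 negative cells alone, TRAV3, TRAV12, TRAV13, TRAJ49 and TRAJ50 were higher in CD8 and TRAV10, TRAV19, TRAJ4, TRAJ27 and TRAJ57 lower. Against CD4 Foxp3 positive cells alone, TRAV14 was higher and TRAV4, TRAJ15 and TRAJ23 were lower. Between the CD4 gates, TRAV19, TRAJ22 and TRAJ57 were higher in Foxp3 negative cells. The gates held the genotypes in different shares, with 71 RARα-TG cells among 1631 CD8 cells and 146 among 337 CD4 Foxp3 positive cells, so gate and genotype are partly mixed in the pooled values.

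The J segments that a V gene was joined to differed along the locus. All 127 V and J names were matched to RefSeq (GRCm38.p6), where the V genes lie between 52427967 and 53977678 and the J segments between 54155005 and 54218842 of chromosome 14. J segments are numbered downwards towards the constant gene, so a TRAJ number above 31 was taken as upstream, nearer to the V genes. An upstream J was found in 92 of 414 clonotypes with a V gene of the D copy (22.2%, 18.3% to 26.5%), 46 of 181 of the N copy (25.4%, 19.2% to 32.4%), 338 of 544 of the third copy, which lies nearer to the J segments (62.1%, 57.9% to 66.2%), and 59 of 64 at the 3′ end (92.2%, 82.7% to 97.4%). For single V genes the share was 38 of 41 for TRAV19 (92.7%), which is the V gene of the 3′ end with most clonotypes, 4 of 43 for TRAV3D-3 (9.30%) and 1 of 35 for TRAV14N-3 (2.86%). Of the 35 TRAV14N-3 clonotypes, 24 were from RARα-KO, where the gene was part of the TRAJ22 set above. Its median TRAJ number was 22, and TRAJ22 counts as downstream, so its low share is not separate from the TRAJ22 excess. The share of TRAV14N-3 without TRAJ22 was not computed. The 5′ end, which is the block farthest from the J segments, did not follow this order, with an upstream J in 12 of 26 clonotypes (46.2%, 26.6% to 66.6%). It had 7 of 11 clonotypes with an upstream J in WT, 1 of 9 in RARα-TG and 4 of 6 in RARα-KO. The D copy, the third copy and the 3′ end stood in this order in each genotype, with upstream shares of 25.7%, 59.4% and 87.5% in WT, 18.2%, 66.9% and 94.7% in RARα-KO and 20.8%, 61.8% and 95.2% in RARα-TG. The D and N copies did not differ beyond their intervals.

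**Figure D4:**
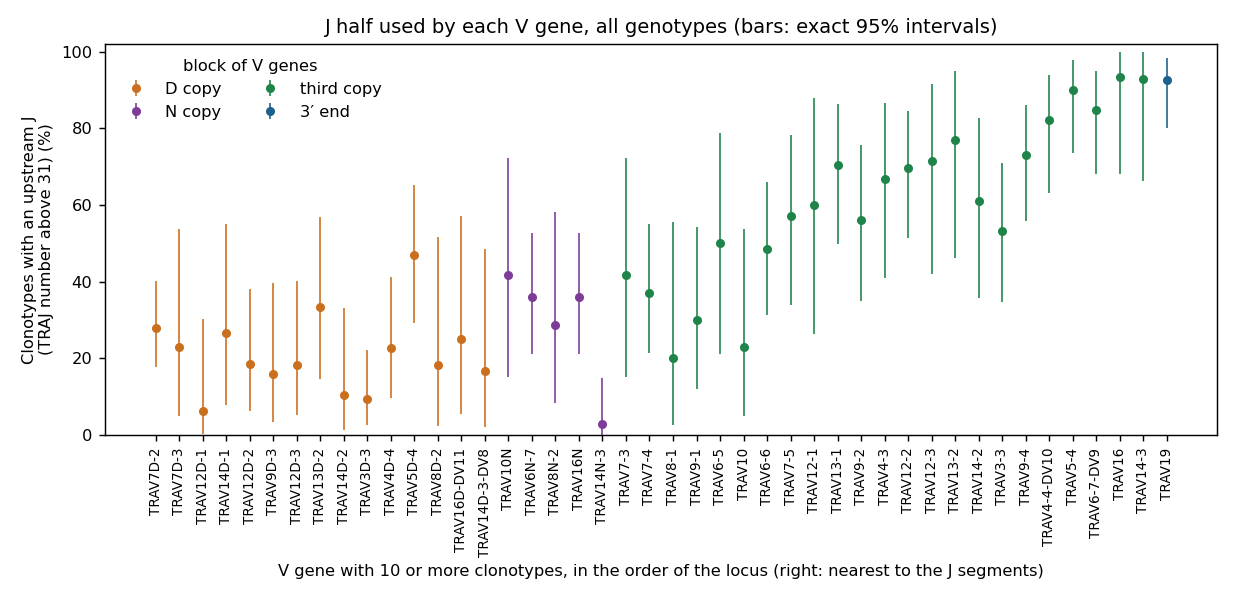
Share of clonotypes with an upstream J (TRAJ number above 31), in percent, for each V gene with 10 or more clonotypes, ordered along the locus from far to near the J segments, with lines for exact 95% intervals and colors for the blocks of V genes. V genes of the D and N copies lie lower than most of the third copy, with TRAV14N-3 lowest at 2.86%, and TRAV19 at the right end is at 92.7%. Of the 35 TRAV14N-3 clonotypes, 24 were from RARα-KO, where the gene was part of the TRAJ22 set.

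The upstream share itself did not differ between genotypes beyond the intervals. It was 208 of 478 clonotypes in WT (43.5%, 39.0% to 48.1%), 143 of 319 in RARα-KO (44.8%, 39.3% to 50.5%) and 196 of 432 in RARα-TG (45.4%, 40.6% to 50.2%), with a median TRAJ number of 30 in each. TRAJ22 counts as downstream. Without the TRAJ22 clonotypes the shares were 44.8% (40.2% to 49.5%), 54.6% (48.3% to 60.7%) and 48.0% (43.1% to 53.0%). Between gates it was 131 of 364 in CD8 (95% interval 31.1% to 41.2%), 113 of 206 in CD4 Foxp3 negative (54.9%, 47.8% to 61.8%) and 125 of 257 in CD4 Foxp3 positive clonotypes (48.6%, 42.4% to 54.9%), so the CD8 interval lay below both others. Without the TRAJ22 clonotypes, an alternative chosen after seeing the data, these shares were 42.3% (36.7% to 48.0%), 59.2% (51.8% to 66.2%) and 50.4% (44.0% to 56.8%), and CD8 lay below CD4 Foxp3 negative clonotypes only. In RARα-KO the gates stood at 31.3%, 51.9% and 59.3% in that order, and the CD8 interval (23.6% to 39.9%) was below both, but without TRAJ22 they stood at 45.2% (42 of 93), 60.3% (41 of 68) and 61.4% (35 of 57), with intervals that overlapped. In WT they stood at 37.2%, 54.5% and 49.5% and in RARα-TG at 42.4%, 58.3% and 41.9%, with intervals that overlapped.

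An allele that is already joined does not stop the other one, and a T cell can carry 2 α chains. They were found in 151 of 1168 WT cells (12.9%, 11.1% to 15.0%), 83 of 1217 RARα-KO cells (6.82%, 5.47% to 8.38%) and 59 of 571 RARα-TG cells (10.3%, 7.96% to 13.1%). The WT and RARα-KO intervals did not overlap over cells. Over clonotypes with at least 1 such cell the shares were 11.5% (55 of 478), 11.0% (35 of 319) and 8.33% (36 of 432), with overlapping intervals. A clonotype of more cells has more chances to show such a cell, and clonotype size differed between genotypes. Among clonotypes of 1 cell the shares were 9.81% (36 of 367), 9.62% (20 of 208) and 6.43% (24 of 373), also with overlapping intervals. In CD8 cells they were 119 of 728 (16.3%, 13.7% to 19.2%) in WT and 53 of 832 (6.37%, 4.81% to 8.25%) in RARα-KO. A few clonotypes carried many of these cells. In WT they were TRAV3-1 with TRAJ7 beside TRAV12D-2 with TRAJ17 (33 of 42 cells with both chains) and TRAV6N-7 with TRAJ33 beside TRAV7D-5 with TRAJ24 (21 of 21 cells), and in RARα-TG TRAV7D-2 with TRAJ23 beside TRAV5D-4 with TRAJ37 (15 of 18 cells).

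The count of second chains rose with the α UMIs of a cell. These UMIs include those of the second chain, so part of the rise is built in. A cell with 1 α UMI cannot show 2 chains, and 0 of 210 such cells did. The share was 6.92% of 795 cells with 5 to 7, 18.9% of 535 cells with 8 to 12 and 33.0% (28.0% to 38.4%) of 327 cells with 13 to 86. The median α UMIs per cell was 5 in each genotype. Among cells with 5 or more α UMIs the shares were 10.4% in RARα-KO, 17.2% in RARα-TG and 21.2% in WT. Cells with 2 α chains had a median of 5230 gene UMIs against 4738 for the others, and 2 β chains were found in 4.78% (2.64% to 7.89%) and 4.36% (3.61% to 5.20%) of them. Among the 207 hashtag doublets, which were left out, 14.0% (9.59% to 19.5%) had 2 α chains. The part of doublets within a genotype in these shares was not tested. The 293 cells held 127 distinct pairs by clonotype, V and J genes. The median difference between the TRAJ numbers of a pair was 6, and in 95 of 127 pairs (74.8%, 66.3% to 82.1%) both J segments were upstream or both downstream.

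**Figure D5:**
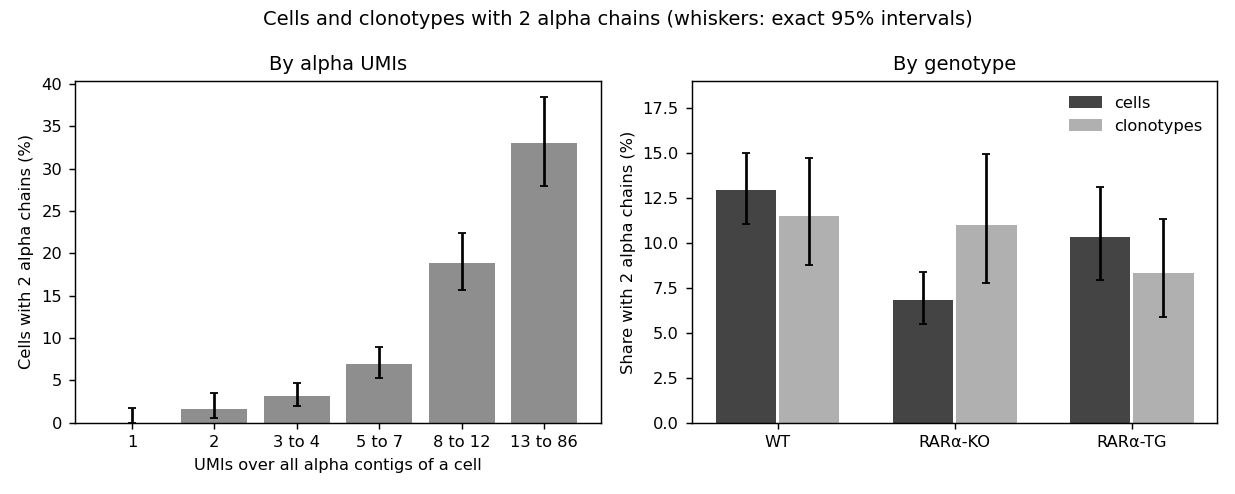
Left, percent of cells with 2 alpha chains by the UMIs over all alpha contigs of a cell, with all genotypes together. Right, the same share by genotype over cells and over clonotypes. Whiskers are exact 95% intervals. On the left the share goes from 0% at 1 UMI, where 2 chains cannot be seen, to 33.0% at 13 to 86 UMIs. Over clonotypes the genotypes lie between 8.33% and 11.5%.

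The invariant chains were rare. TRAV11 (chromosome 14, 53519303 to 53519859) with TRAJ18 (54200777 to 54200842) was found in 5 of 2956 cells (0.169%, 0.0549% to 0.394%), each in a clonotype of 1 cell. They were 2 of 1168 WT cells (0.171%), 0 of 1217 RARα-KO cells (which allows a share of up to 0.247%) and 3 of 571 RARα-TG cells (0.525%), with overlapping intervals. Their CDR3 had 45 bases in all 5 and differed at a single base, in capitals here.
3 cells (2 WT, 1 RARα-TG): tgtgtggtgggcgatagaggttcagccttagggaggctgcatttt
1 RARα-TG cell: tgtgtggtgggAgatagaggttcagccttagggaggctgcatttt
1 RARα-TG cell: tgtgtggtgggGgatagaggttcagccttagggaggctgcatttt
The 3 cells that share a sequence were annotated with TRBV12-2+TRBV13-2 β chains and the cell with capital A with TRBV29, and no β chain was read in the other. Zbtb16, the transcription factor PLZF of innate-like T cells, had UMIs in 2 of the 5 cells and in 0.339% of the other counted cells. Klrb1c, the gene of NK1.1, had 1 UMI in 1 cell, and Cxcr6, which most counted cells also expressed (64.8%), had UMIs in 3. Of the other markers on the list, Blk and Il23r had no UMI in the 5 cells, Tbx21 had 1, and Il2rb, Il18r1 and Maf had between 3 and 14. Il2rb was in 3 of the 5 cells against 88.5% of other counted cells, and Tbx21 in 1 against 28.6%. Il18r1 was in 4 against 34.4%, and Maf in 3 against 27.4%. TRAV1 with TRAJ33 was found in 0 of 2956 cells (which allows a share of up to 0.101%). TRAV1 alone was in 3 cells and TRAJ33 alone in 94. With second chains included the counts stayed at 5 and 0.

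The V gene could be read a second way, from Trav UMIs of the gene expression counts. Among 2146 cells with 1 or more Trav UMIs, the subgroup with most UMIs was that of the contig in 1763 (82.2%, 80.5% to 83.8%), and the cells without any TCR contig had a Trav UMI in 11 of 634 (1.74%). The agreement was 79.5% in RARα-TG (75.2% to 83.4%), 81.4% in RARα-KO (78.6% to 83.9%) and 84.1% in WT (81.5% to 86.4%), with overlapping intervals. It was 67.8% in cells with 2 α chains and 84.0% in cells with 1. It depended on the V gene. Of 38 V genes with 20 or more cells, 25 had UMIs of their own subgroup in more than 80% of cells, and 10 in fewer than 10%. TRAV14N-3 had them in 287 of 300 cells (95.7%) and TRAV12D-1 in 0 of 169, and TRAV3D-3 (2 of 133) and TRAV7D-2 (13 of 233) were also low. The Trav counts of the matrix therefore carried the TRAV14 difference but not that of TRAV12D-1: in CD8 cells with a counted chain, Trav14 genes were at 217.9 CPM in RARα-KO (206.2 to 230.0), 16.0 in WT (12.8 to 19.8) and 12.3 in RARα-TG (5 UMIs), while Trav12 genes were at 10.3 CPM in RARα-KO (7.93 to 13.3) and 59.5 in WT (53.1 to 66.5).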

How the data were processed

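The authors ran Cell Ranger (6.1.0 in the submitters' processing notes, 4 in the matrix header) with mm10 and deposited a matrix of raw UMI counts, without normalization, and a contig table with UMI and read counts, V and J genes and clonotypes, called by the authors on the pooled sample. Here barcodes with 500 or more gene UMIs were cells. Genotypes came from HTODemux (Seurat 5.3.0, R 4.3.3, quantile 0.99), and hashtag doublets were removed. Doublets within a genotype were not called. Other steps used Python 3.11.15, pandas 2.3.3 and scipy 1.17.1. The counted alpha chain was the contig with most UMIs, then most reads. D and N copies were pooled in subgroups, and a clonotype had the alpha chain of most of its cells in a genotype or gate. Values of 0 were set to 3 counts in ratios. Shares have exact Clopper-Pearson 95% intervals and CPM values exact Poisson intervals. The shares and the calling rule were tested on simulated data. Coordinates came from RefSeq (GRCm38.p6). The 12 alternatives changed the choice of chain, cells, hashtags, clonotypes or minimum.

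The members and lists were chosen with earlier results of these data known. Named segments were the 10 V subgroups and 5 J segments with most clonotypes, every one past 2-fold with separate intervals between 2 genotypes or gates, and TRAV11, TRAV1, TRAJ18 and TRAJ33, with the 3 largest clonotypes per genotype and every clonotype with an invariant chain; the sequence of 1 clonotype and 1 marker gene of the list are not reported here. The 42-base TRAJ22 set, single V genes and TRAV6N-7 were chosen after their values were seen. The labels also give spleen and activated CD8 T cells, which differs from the tumor protocol that was followed.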

Additional observations from a re-analysis of the deposited data

Results flagged for a closer look

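Some chains in the deposited contig table carry no clonotype and stand outside the shares above. Among RARα-KO CD8 cells with Cd3e and no counted alpha chain (361 cells), 176 had a productive alpha contig without a clonotype, and TRAJ22 was in 129 of them (73.3%, 66.1% to 79.7%), above 1 of 31 in WT and 1 of 7 in RARα-TG. Of these 129, 128 belonged to the TRAV14 or TRAV12 set with 42 bases, and 121 of them had a CDR3 that was also counted in a RARα-KO cell. Their contigs had a median of 6 UMIs. Among cells without Cd3e, 10 of 387 RARα-KO cells had such a contig. In the same 361 cells, Trav14 genes gave 497 of 990 Trav UMIs (50.2%, 47.0% to 53.4%), against 3 of 96 in the 118 WT cells (3.12%) and 0 of 28 in the 40 RARα-TG cells. Cells with a beta chain in a clonotype and no counted alpha chain were 16.8% (14.9% to 18.8%) of the TCR cells in RARα-KO, 10.6% (8.95% to 12.4%) in WT and 13.7% (11.2% to 16.6%) in RARα-TG.

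In the counted cells, 668 alpha contigs had no clonotype, none of them productive, in 656 cells (22.2%). After repeats within a clonotype were dropped, 329 remained with a V and a J gene. TRAJ22 was in 6 and TRAJ7 in 8 of these, TRAJ32 led with 26, and an upstream J was in 148 (45.0%, 39.5% to 50.5%).

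Contigs of the delta chain, which marks gamma delta T cells, were found in 15 counted cells. None of the 38 delta contigs of the table was productive.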

How the results depend on the processing

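Of 619 values under 12 alternatives, 599 stayed within the interval of the reported share, or within 1.5 times a count, and 20 moved. With contigs of 3 or more UMIs, TRAV11 with TRAJ18 was left in 3 cells, TRAV14 became the 1 V subgroup called between RARα-KO and WT clonotypes, 1 J segment (TRAJ22) stayed called there, and 2 V subgroups (TRAV16 and TRAV7) separated CD8 from CD4 Foxp3 positive clonotypes, as did 2 when cells with 3 or more markers of other cell types were left out. With clonotypes defined by the alpha chain alone, TRAJ22 was at 13.3% of RARα-KO clonotypes and 1 J segment (TRAJ22) was called against WT, as with hashtags called by ratio (1). TRAJ12 was thus lost as a call under 3 alternatives. With the chain of most reads, and with clonotypes by alpha chain alone, 1 V subgroup (TRAV16) separated CD8 from CD4 Foxp3 negative clonotypes, and with CD8 cells gated by Cd8a or Cd8b1 the 2 called were TRAV12 and TRAV16, so TRAV7 was lost under 3 alternatives. TRAJ15 was lost as a call between CD8 and CD4 Foxp3 positive clonotypes under 4 (most reads, 3 or more contig UMIs, Cd8a or Cd8b1, alpha chain alone). Without the largest clonotype of each genotype TRAJ22 was at 33.7% of RARα-KO cells, and TRAV6 was no longer called over cells between RARα-TG and WT. Without the TRAJ22 clonotypes, chosen after seeing the data, an upstream J was in 54.6% of RARα-KO and 42.3% of CD8 clonotypes. Among cells of 5 or more alpha UMIs, 2 alpha chains were in 10.4% of those from RARα-KO, 17.2% from RARα-TG and 21.2% from WT. With 3 or more Trav UMIs the agreement of subgroups was 88.2%. With segments of 40 or more cells, 9 J segments were called over cells between RARα-KO and WT. The cause of these changes was not tested.

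No paired analysis was possible because each genotype is 1 sample. The RARα-TG sample has 71 CD8 cells, which limits every CD8 comparison with it, and each genotype is 1 pool from an unstated number of mice, so a difference between genotypes and one between these pools cannot be told apart.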
